A study of Homo sapiens with 8 samples.

Results

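The 47 genes described here encode the machinery that licenses replication origins and builds and runs the DNA replication fork. They were taken by name from the deposited table of 25945 genes, and all 47 were found there. RNA of MiaPaCa-2 cells, a human pancreatic cancer line labelled as wild type, had been sequenced 48 h after transfection with an siRNA against BARD1 (siBARD1, 4 libraries) or with a scrambled siRNA (siSCR, 4 libraries). The study asked what silencing BARD1 changes in pancreatic cancer cells. BARD1 pairs with BRCA1, and together they form a ubiquitin ligase needed for DNA repair by homologous recombination. The siRNA sequence and the origin of the replicates are not given in the labels, and the p-values here reflect the spread of these libraries alone, which may be technical.

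Origins are licensed when the origin recognition complex, CDC6 and CDT1 load the MCM2-7 helicase onto DNA, before S phase begins. The kinase CDC7 with its activator DBF4 then phosphorylates MCM proteins, and CDC45 and the GINS complex join them to make the active helicase. Primase and polymerase alpha start each strand, the clamp PCNA holds polymerases delta and epsilon on it, and RPA covers the exposed single strands. Many of these genes are transcribed under E2F factors and are highest around S phase in proliferating cells.

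BARD1 itself (ENSG00000138376) was at 3.56, 2.24, 2.45 and 7.59 CPM in siBARD1 libraries 1 to 4, against 26.9, 28.0, 26.9 and 20.8 CPM in siSCR libraries 1 to 4. CPM are TMM-scaled counts per 1e6 reads, a scaling that corrects for library composition. BARD1 was 6.47-fold lower (log2 fold change -2.69, SE 0.36, edgeR adjusted p = 0.00397; exact permutation p = 0.0286, the smallest that 4 against 4 allow). The level left was 8.02% to 13.3% in pairs 1 to 3 and 36.5% in pair 4, a pair being the libraries of equal number. Total gene counts were 27565777 to 36212716 in siBARD1 libraries and 24458665 to 32627983 in siSCR libraries. Both libraries numbered 4 stood apart from the others of their group, with mitochondrial genes at 4.44% of counts in siBARD1 4 and 3.26% in siSCR 4, against 0.695% to 2.02% in the other 6. The counts, and the members given by library, are therefore also given without both of them wherever that changes a call. Of 4 epithelial keratins KRT8, KRT18 and KRT19 were well expressed and KRT7 was at 0 to 0.283 CPM. KRT8 (1801 to 3343 CPM in siBARD1, 1540.4 to 2296 CPM in siSCR) and the mesenchymal filament VIM (1809 to 2043 CPM in siBARD1, 1632 to 1769 CPM in siSCR) were high. The fibroblast markers DCN and LUM, the macrophage marker CD68 and the endothelial marker VWF were at 0 or near it, with a maximum of 1.35 CPM, reached by DCN in siBARD1 1. The collagen gene COL1A1 was at 0.645 to 1.02 CPM in siBARD1 and 0.617 to 2.01 CPM in siSCR, and the endothelial cadherin CDH5 was at 6.74 to 10.2 CPM in siBARD1 and 3.49 to 5.18 CPM in siSCR.

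All 47 genes passed the filter on low counts. With BARD1 siRNA 6 were lower, none was higher and 41 did not pass the threshold (edgeR quasi-likelihood test, adjusted p under 0.05 over 14528 genes). The 6 were CDC7, CDC45 and GINS3 of helicase activation, the clamp loader subunit RFC4, the RPA subunit RPA3 and the histone chaperone subunit CHAF1B. Of all genes tested 3.22% were lower and 1.82% higher. DESeq2 called 15 lower and none higher, where it called 5.82% of all genes lower and 4.71% higher. At an unadjusted edgeR p under 0.05, 24 of the 47 were lower and none higher. No share of all genes was taken at that threshold, so this count has nothing to be set against. With the replicate number as a block, 31 were lower and none higher, the 6 among them, where 12.6% of all genes were lower and 11% higher. Without both libraries numbered 4, the same 31 were lower and 3 were higher (15.4% and 15% of all genes). Each member described below as lower with the block was thus also lower without those libraries. The authors' deposited table lists 10 of the 47 as lower and none as higher. Of the 12911 genes tested here that have values there, it calls 5.37% lower.

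The differences were small: 41 of the 47 log2 fold changes were negative, with a median of -0.27, against 0.01 over all genes tested. By pair, the members' median log2 ratio was -0.24, -0.21, -0.27 and -0.36 in pairs 1 to 4, and that of all genes lay between -0.01 and 0.00. In all 4 pairs 37 of the 47 were lower, against 20.9% of all genes, and none was higher in all 4. The ranges of the groups did not overlap in 18 members, each lower in siBARD1, where 7.52% of all genes were lower and 5.46% higher without overlap. The 47 genes took 0.414% to 0.502% of counts in siBARD1 libraries and 0.530% to 0.572% in siSCR libraries. In these bulk libraries fewer cells in S phase and less RNA per cell cannot be told apart.

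**Figure D1:**
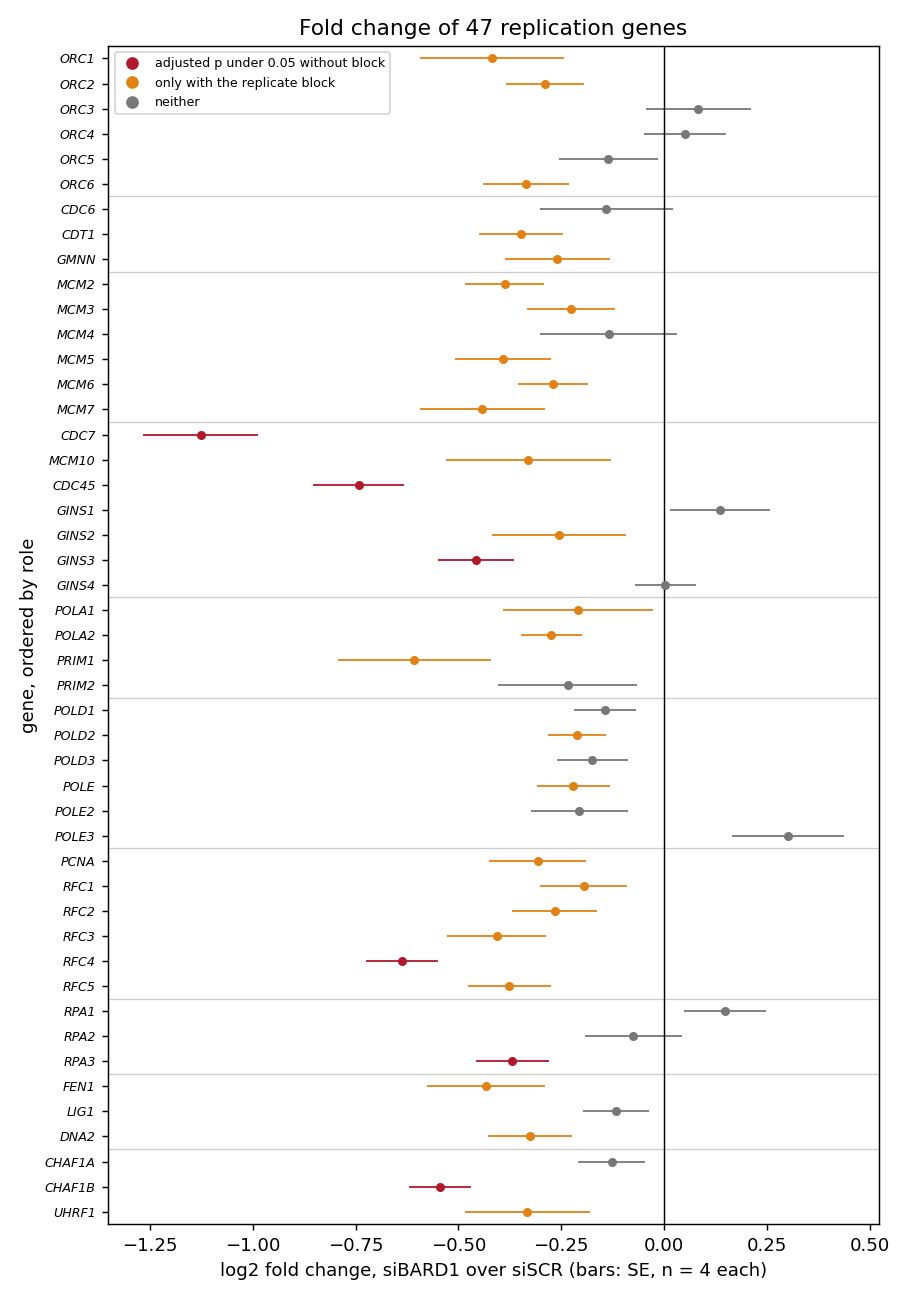
Log2 fold change, siBARD1 over siSCR, of the 47 genes ordered by role, with bars for the SE (n = 4 each); red marks the 6 past the threshold without a block, orange those past it only with the replicate block, grey the 16 past neither. CDC7 lies farthest left, and 41 of the 47 points lie left of 0.

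Relative to the mean of libraries 1 to 3, library 4 was lower in 39 of the 47 genes in siBARD1 and in 40 of 47 in siSCR, with medians of -0.32 and -0.17 on the log2 scale, against 0.02 and 0.03 for all genes. Markers of proliferation and mitosis are given beside them. Of 8 such genes AURKA, a mitotic kinase, was lower (log2 fold change -1.17, SE 0.17, adjusted p = 0.0066), where 3.22% of all genes were lower. With the block 7 were lower, and 7 without both libraries numbered 4, against 12.6% and 15.4% of all genes. None was higher in any of these fits. The cyclin gene CCNE2 was lower in none of them, with a log2 fold change of 0.07 over all libraries (adjusted p = 0.912). The median log2 fold change of the 8 was -0.40. Relative to libraries 1 to 3 their medians in library 4 were -0.64 in siBARD1 and -0.40 in siSCR. Their part in the results on replication genes was not tested.

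**Figure D2:**
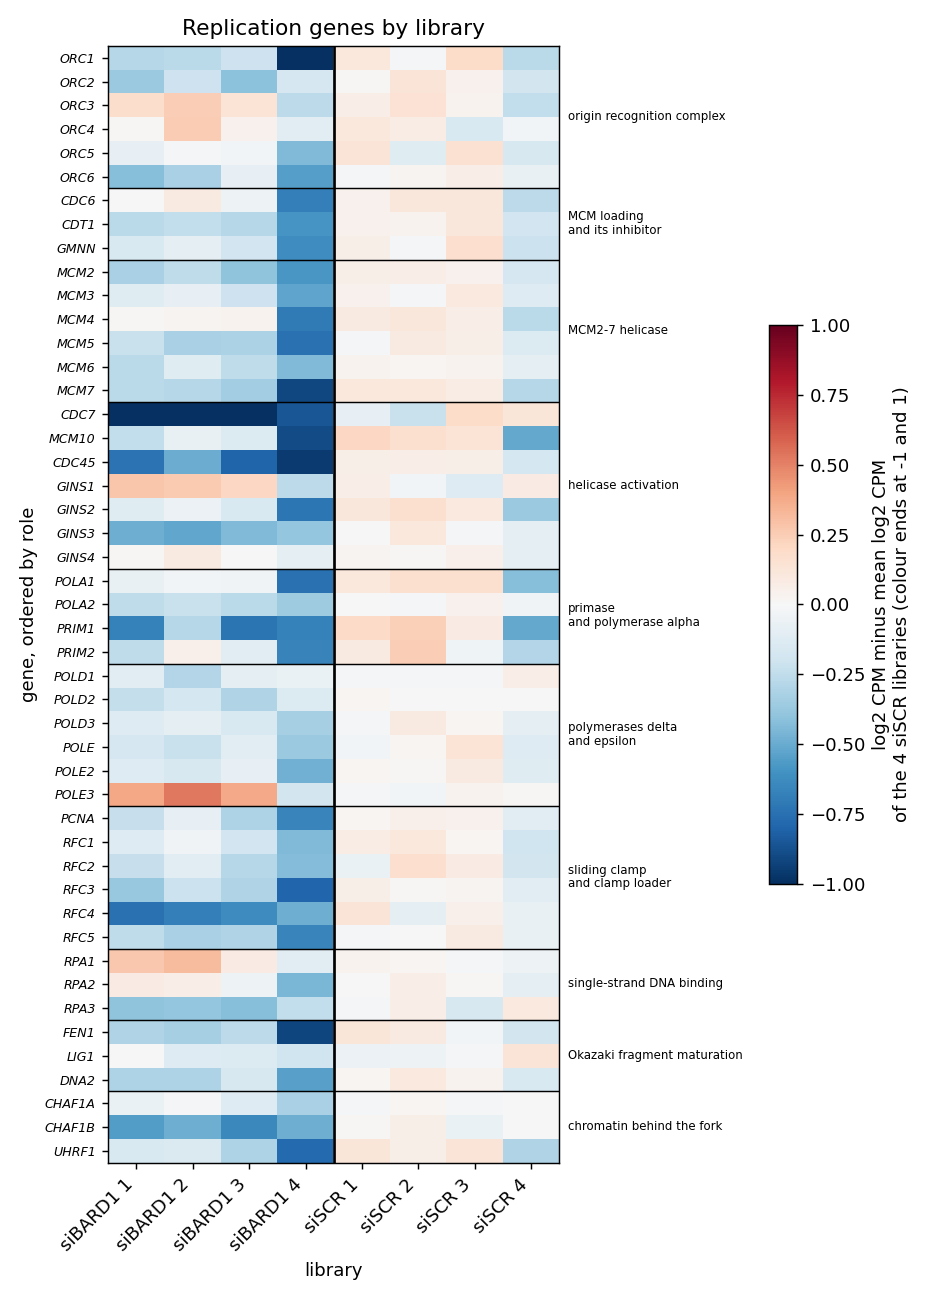
Log2 CPM of each gene (rows, by role) in each library (columns, siBARD1 left of siSCR), minus the mean of the 4 siSCR libraries; blue is lower and red higher, and the colour ends at -1 and 1. CDC7 is dark blue in all 4 siBARD1 libraries, POLE3 is red in siBARD1 1 to 3 and pale blue in siBARD1 4, and most rows are bluest in siBARD1 4.

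Levels between genes are compared as FPKM, the authors' value per gene length. The highest levels in both groups were those of the helicase subunit MCM7, at 149 ± 23.0 FPKM in siBARD1 and 203 ± 18.5 FPKM in siSCR, and of PCNA, at 153 ± 18.97 FPKM in siBARD1 and 189 ± 3.38 FPKM in siSCR (SD, n = 4 each). The helicase subunits spanned 27.8 FPKM (MCM5) to 149 FPKM (MCM7) in siBARD1 and 36.5 to 203 FPKM in siSCR, with MCM5 and MCM7 at the ends in both. CDC7 was the lowest in siBARD1 at 4.04 ± 0.79 FPKM, below GINS3 at 5.57 ± 0.47 FPKM. In siSCR CDC7 stood at 8.76 ± 1.26 FPKM, above DNA2 at 8.32 ± 0.35 FPKM and GINS3, there the lowest, at 7.60 ± 0.30 FPKM. In siSCR every member lay at or above percentile 55.1 of the genes tested.

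**Figure D3:**
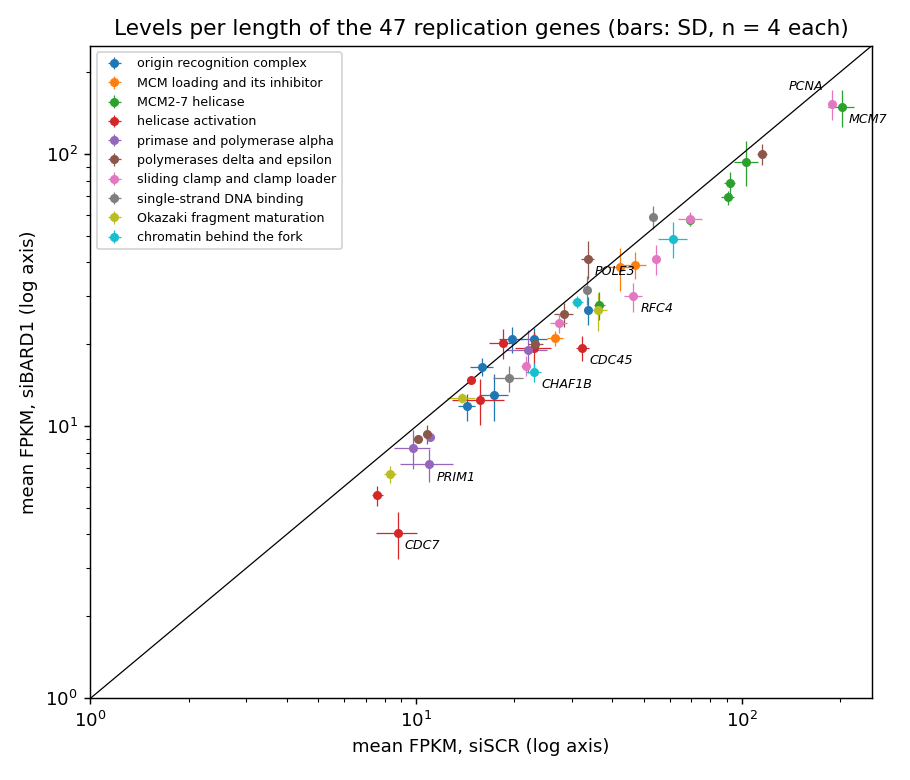
Mean FPKM in siBARD1 (vertical) against siSCR (horizontal) for the 47 genes, both on log axes, coloured by role, with bars for the SD (n = 4 each) and a line of equal level. MCM7 and PCNA lie at the top right, and CDC7, at 4.04 against 8.76 FPKM, lies farthest below the line.

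CDC7, the member with the largest fall, holds 3 copies of a sequence that was frequent in the 3′ UTRs of lowered genes. This octamer, ATACAGAA, was picked from these same fold changes, so its counts describe and support nothing. Among octamers in at least 50 genes, it had the lowest shift of the mean log2 fold change, a score that also grows with the number of genes. It was found in the 3′ UTR of 591 of 12058 tested genes with an annotated UTR (GENCODE 29, GRCh38), of which 116 were lower and 2 higher. Another 1889 lacked the octamer but held at least 1 of its heptamers, ATACAGA or TACAGAA, with 132 lower and 50 higher. The 9578 with neither octamer nor heptamer had 208 lower and 198 higher. Of the 46 members with a UTR there, 2 held the octamer, 1 of them lower past the threshold, CDC7 with 3 copies, and ORC4, GINS2, GINS3 and FEN1 held a heptamer. Among the 40 members with neither, 4 were lower, and their median log2 fold change was -0.25. DBF4, which is not among the 47, held 1 copy. The sites are shown because the member with the largest fall carries several of them. They lie at chr1:91524712-91524741, chr1:91525312-91525341 and chr1:91525558-91525587 on the plus strand (CDC7) and chr7:87908555-87908584 on the plus strand (DBF4), with the octamer in capitals.
CDC7 site 1: ttcactgacatATACAGAAaaaggagcagt
CDC7 site 2: aggaaaagtgaATACAGAAttgacggtatt
CDC7 site 3: gtagtcatagaATACAGAAatagtttaggg
DBF4 site: acctaaatttcATACAGAAaggaaaaatac

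Promoters of the members were searched for E2F-type motifs. In the 250 bases before the start (RefSeq, GRCh38.p14; 40 of 47 members matched), TTTNNCGC was found on either strand in 16 of 40 members, which is 40% of them. The share was 8.95% of 9431 tested genes and 5.92% of all 35116 promoters. It was in 0 of the 5 matched members that were lower past the threshold and in 16 of the 35 others. The motif CCAAT, on either strand, was in 22 of 40 members and in 34.9% of tested genes. A match is a description of letters and not a measured binding site. Examples are shown from 4 members, a helicase subunit, a loading factor, the clamp and a subunit of its loader, none past the threshold without a block: MCM6 at chr2:135876577-135876606 and chr2:135876515-135876544 (minus strand), PCNA at chr20:5126663-5126692 (minus strand), CDT1 at chr16:88803743-88803772 (plus strand) and RFC3 at chr13:33818083-33818112 (plus strand). Capitals mark a match in each window, which is in the reverse orientation in the last 3. Each MCM6 window also holds an overlapping match in the reverse orientation, which is not marked.
MCM6 window 1: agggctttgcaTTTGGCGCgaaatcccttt
MCM6 window 2: cattggtcaggTTTGGCGCgaaatctccag
PCNA window: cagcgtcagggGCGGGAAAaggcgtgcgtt
CDT1 window: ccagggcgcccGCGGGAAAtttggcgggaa
RFC3 window: atttggagctcGCGGGAAAacttgtctctg

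Of the 6 subunits of the origin recognition complex, which marks origins, none passed the threshold. With the block ORC1, ORC2 and ORC6 were lower. ORC6 was at 46.0, 49.4, 58.6 and 42.2 CPM in siBARD1 and at 60.9, 63.0, 64.9 and 58.8 CPM in siSCR. All 4 siBARD1 values lie below all siSCR values, by little for library 3 (log2 fold change -0.34, SE 0.11, adjusted p = 0.107, with the block 0.00279, and 0.00636 without both libraries numbered 4). ORC3 and ORC4 had log2 fold changes of 0.08 and 0.05.

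Of the loading factors CDC6 and CDT1 and the CDT1 inhibitor geminin (GMNN), none passed, and CDT1 and GMNN were lower with the block. CDT1 was at 71.8, 73.0, 71.2 and 57.5 CPM in siBARD1 and at 89.3, 89.0, 93.8 and 75.9 CPM in siSCR. The groups did not overlap, and library 4 was the lowest in both (log2 fold change -0.35, SE 0.10, adjusted p = 0.0887, with the block 0.000768, and 0.000131 without both libraries numbered 4). Without siBARD1 4, or without siSCR 4, CDT1 passed. CDC6, the loading ATPase, was at 119 ± 25.5 CPM in siBARD1 and 131 ± 15.1 CPM in siSCR (SD, n = 4 each), with a log2 fold change of -0.14.

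All 6 subunits of the MCM2-7 ring had negative log2 fold changes, from -0.44 for MCM7 to -0.13 for MCM4, and were lower in all 4 pairs. None passed the threshold, and all but MCM4 were lower with the block. MCM2 came nearest, with 262, 276, 248 and 219 CPM in siBARD1 and 342, 344, 337 and 291 CPM in siSCR. The groups did not overlap (log2 fold change -0.39, SE 0.10, adjusted p = 0.0503, with the block 0.000116, and 1.41e-06 without both libraries numbered 4), and MCM2 passed without siBARD1 4 or without siSCR 4. MCM7 was at 444 ± 84.2 CPM in siBARD1 and 603 ± 74.0 CPM in siSCR (SD, n = 4 each). Library 4 lay below the mean of the other 3, at -0.61 in siBARD1 and -0.38 in siSCR on the log2 scale (adjusted p = 0.14, with the block 6.29e-05, and 1.22e-07 without both libraries numbered 4). The authors' deposited table calls MCM2 lower, with a log2 fold change of -0.36.

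Helicase activation held 3 of the 6 genes called. CDC7 (ENSG00000097046, GRCh37 chromosome 1, 91966408 to 91991321), the kinase that triggers origin firing, was at 11.2, 12.8, 13.3 and 16.0 CPM in siBARD1 and at 27.2, 24.8, 32.7 and 31.4 CPM in siSCR. Each siBARD1 library lay well below each siSCR library, and the mean was 2.18-fold lower (log2 fold change -1.13, SE 0.14, adjusted p = 0.00278). Its log2 ratio was -1.28, -0.95, -1.30 and -0.98 in pairs 1 to 4. Among all genes tested it ranked 86 by size of fall. CDC7 passed in each of the 8 fits that left out 1 library.

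CDC45 (ENSG00000093009, GRCh37 chromosome 22, 19466982 to 19508135), the factor that joins the loaded MCM ring, was at 40.6, 48.1, 38.8 and 34.8 CPM in siBARD1 and at 70.6, 70.8, 70.4 and 59.8 CPM in siSCR. The groups were well apart, and the mean was 1.67-fold lower (log2 fold change -0.74, SE 0.11, adjusted p = 0.0066). CDC45 also passed in all 8 fits without 1 library. MCM10, which helps to activate the helicase, had a log2 fold change of -0.33 over all libraries and did not pass (adjusted p = 0.44), but was lower with the block (0.0018) and without both libraries numbered 4 (0.000548).

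The 4 subunits of GINS differed in sign. GINS3 (ENSG00000181938, GRCh37 chromosome 16, 58328984 to 58440048) was at 17.4, 17.0, 18.0 and 18.7 CPM in siBARD1 and at 24.3, 26.3, 24.2 and 22.9 CPM in siSCR, without overlap. It was lower (log2 fold change -0.46, SE 0.09, adjusted p = 0.0231), but passed in only 2 of the 8 fits without 1 library, those without siBARD1 4 and without siSCR 4. In the other 6 its adjusted p reached 0.0992. GINS1 was at 72.7, 71.9, 69.3 and 50.1 CPM in siBARD1 and at 62.9, 58.9, 54.9 and 63.6 CPM in siSCR, higher in pairs 1 to 3 and lower in pair 4. Its log2 fold change was 0.14 over all libraries (SE 0.12, adjusted p = 0.635) and 0.28 without both libraries numbered 4 (SE 0.07, adjusted p = 0.00273). GINS2 was at -0.26 and GINS4 at 0.00 on the same log2 scale.

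**Figure D4:**
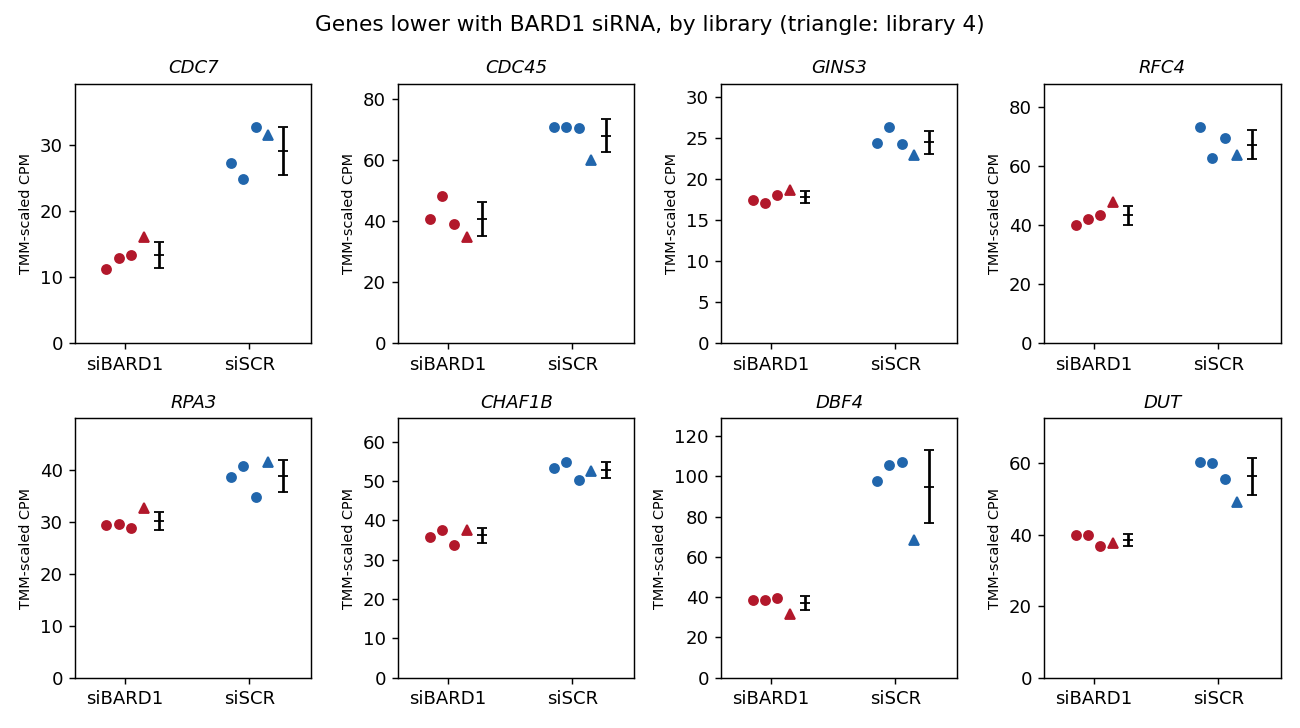
TMM-scaled CPM by library (n = 4 each) of the 6 members past the threshold and of DBF4 and DUT, siBARD1 left of siSCR; triangles are library 4, and bars give the mean and SD. In each panel all 4 siBARD1 points lie below all 4 siSCR points.

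Primase and polymerase alpha, which lay the primers, had 4 members with negative log2 fold changes and none past the threshold. The accessory subunit POLA2 was at 34.7, 35.5, 34.3 and 32.2 CPM in siBARD1 and at 41.3, 41.0, 42.7 and 40.4 CPM in siSCR. The values were tight and apart (log2 fold change -0.27, SE 0.07, adjusted p = 0.064, with the block 0.011, and 0.0117 without both libraries numbered 4), and POLA2 passed without siBARD1 4. PRIM1, the catalytic primase subunit, had a log2 fold change of -0.61 with a wide spread (SE 0.19, adjusted p = 0.101, with the block 0.00453, and 0.000178 without both libraries numbered 4). It overlaps NACA on the same strand, whose reads were 3398% of its own, so its count is uncertain. NACA had a log2 fold change of -0.04.

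Polymerases delta and epsilon, which copy the bulk of the genome, had a median log2 fold change of -0.19 over 6 subunits, and none passed. With the block POLD2 and POLE were lower. POLD2, a subunit of polymerase delta, was at 212, 221, 202 and 227 CPM in siBARD1 and at 253, 248, 248 and 248 CPM in siSCR, a small gap without overlap (log2 fold change -0.21, SE 0.07, adjusted p = 0.126, with the block 0.00976, and 0.000379 without both libraries numbered 4). It passed without siBARD1 4.

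POLE3, a histone-fold subunit of polymerase epsilon that is also part of a chromatin remodelling complex, had the largest positive value of the 47. It was at 105.8, 116.4, 105.0 and 71.1 CPM in siBARD1 and at 79.5, 79.3, 82.7 and 81.6 CPM in siSCR. In libraries 1 to 3 siBARD1 lay above all siSCR values, and in siBARD1 4 below them. The log2 fold change was 0.30 over all libraries (SE 0.14, adjusted p = 0.268) and 0.44 without both libraries numbered 4 (SE 0.06, adjusted p = 5.71e-06).

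All 6 genes of the clamp and its loader had negative log2 fold changes, were lower in all 4 pairs and were lower with the block. RFC4 (ENSG00000163918, GRCh37 chromosome 3, 186507669 to 186524847), a subunit of the clamp loader, was called without it. It was at 40.2, 42.0, 43.4 and 47.8 CPM in siBARD1 and at 73.4, 62.8, 69.6 and 63.7 CPM in siSCR. The groups were far apart, 1.55-fold lower in the mean (log2 fold change -0.64, SE 0.09, adjusted p = 0.00473), and the gene passed in all 8 fits without 1 library. RFC4 overlaps EIF4A2 on the opposite strand, whose reads were 644% of its own and whose log2 fold change was -0.20. The clamp PCNA was at 209 ± 33.7 CPM in siBARD1 and 258 ± 13.5 CPM in siSCR (SD, n = 4 each), with a log2 fold change of -0.31. RFC3 and RFC5, at -0.41 and -0.38, did not overlap between groups and were also lower in the authors' deposited table. RFC5 overlaps WSB2 on the opposite strand, whose reads were 213% of its own and whose log2 fold change was -0.04.

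The 3 subunits of RPA differed in sign. RPA3 (ENSG00000106399, GRCh37 chromosome 7, 7676149 to 7758238), the smallest subunit, was at 29.4, 29.7, 28.9 and 32.8 CPM in siBARD1 and at 38.6, 40.8, 34.8 and 41.7 CPM in siSCR. It was lower without overlap (log2 fold change -0.37, SE 0.09, adjusted p = 0.0467), but passed in only 1 of 8 fits without 1 library, that without siBARD1 4, and its adjusted p reached 0.156 in the others. It overlaps AC006465.3 on the opposite strand, whose reads were 43.5% of its own and whose log2 fold change was -0.33. RPA1, the largest subunit, was at 278, 288, 245 and 214 CPM in siBARD1 and at 237, 234.5, 229.9 and 223 CPM in siSCR. It was higher in pairs 1 to 3 and lower in pair 4, with a log2 fold change of 0.15 (SE 0.10, adjusted p = 0.493) over all libraries and 0.21 (SE 0.05, adjusted p = 0.0038) without both libraries numbered 4. RPA2 was at -0.07 on that scale.

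Of the genes that mature Okazaki fragments, none passed. The helicase-nuclease DNA2 was at 29.7, 29.7, 32.9 and 25.3 CPM in siBARD1 and at 37.3, 39.5, 37.6 and 33.1 CPM in siSCR. The groups met without overlapping (log2 fold change -0.33, SE 0.10, adjusted p = 0.108, with the block 0.00602, and 0.0055 without both libraries numbered 4). The flap nuclease FEN1 had a log2 fold change of -0.43 and was lower with the block, and the ligase LIG1 had -0.12 and was not.

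Behind the fork, CHAF1B (ENSG00000159259, GRCh37 chromosome 21, 37757676 to 37789125) was lower. It encodes a subunit of CAF-1, which deposits histones on new DNA. It was at 35.7, 37.6, 33.8 and 37.5 CPM in siBARD1 and at 53.2, 54.9, 50.2 and 52.6 CPM in siSCR. The groups were tight and apart, including library 4 (log2 fold change -0.55, SE 0.07, adjusted p = 0.0047), and CHAF1B passed in all 8 fits without 1 library. It overlaps MORC3 on the same strand, whose reads were 115% of its own and whose log2 fold change was -0.33 (adjusted p = 0.143). CHAF1A, the large subunit of CAF-1, had a log2 fold change of -0.13, with an SE of 0.08. UHRF1, which helps to copy DNA methylation, had -0.33 and was lower with the block.

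**Figure D5:**
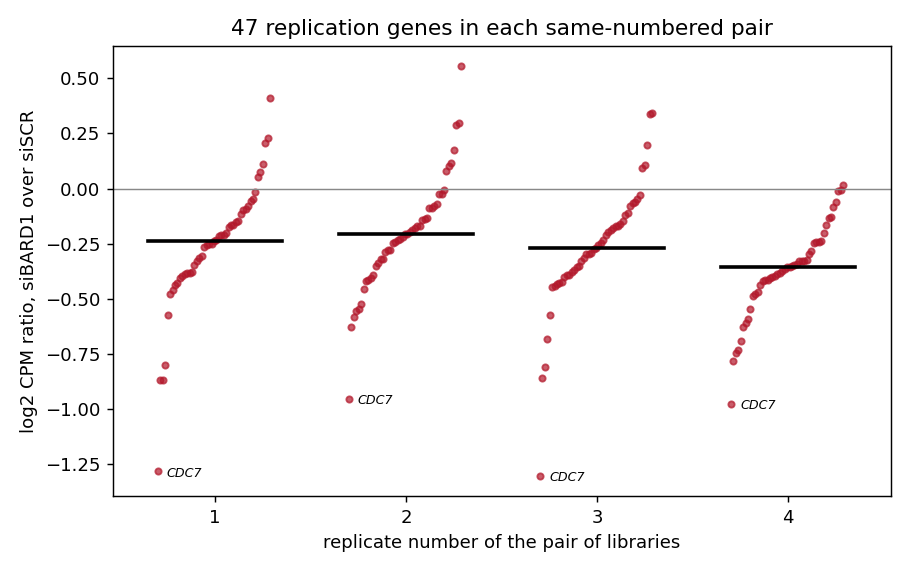
Log2 CPM ratio, siBARD1 over siSCR, of the 47 genes in each pair of libraries of equal number, with a line at the median. The medians are -0.24, -0.21, -0.27 and -0.36 for pairs 1 to 4, and CDC7 is the lowest point in every pair.

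Of 40 further replication genes outside the 47, 8 were lower and none higher, with a median log2 fold change of -0.22. Of all genes 3.22% were lower in that fit. With the block 20 were lower, and without both libraries numbered 4 also 20, with none higher in either. There 12.6% and 15.4% of all genes were lower. DBF4, an activating subunit of CDC7, had the largest fall among these 40. It was at 38.6, 38.7, 39.4 and 31.6 CPM in siBARD1 and at 97.6, 105.9, 107.4 and 68.4 CPM in siSCR. Every siBARD1 value lay below every siSCR value, 2.56-fold lower in the mean (log2 fold change -1.35, SE 0.15, adjusted p = 0.00148), and DBF4 passed in all 8 fits without 1 library. RNA of CDC7 and of DBF4 was thus lower. DBF4B, named after its values were seen, had a log2 fold change of -0.29 and did not pass (edgeR adjusted p = 0.0632). It was lower with the block (0.00986) and without both libraries numbered 4 (0.0138).

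Of the nucleotide supply genes DUT, TK1 and DTYMK were lower. DUT, which hydrolyses dUTP, was at 40.0, 39.9, 36.8 and 37.6 CPM in siBARD1 and at 60.5, 60.0, 55.7 and 49.2 CPM in siSCR (log2 fold change -0.55, SE 0.09, adjusted p = 0.00967). It missed the threshold only without siSCR 1 and without siSCR 3, with an adjusted p of up to 0.0523. The fork protector TIMELESS was at 64.2, 63.8, 74.7 and 68.1 CPM in siBARD1 and at 90.9, 87.8, 90.3 and 90.2 CPM in siSCR, also without overlap (log2 fold change -0.41, adjusted p = 0.0175). DTYMK, a kinase of dTMP, was at 66.2, 63.6, 67.3 and 58.8 CPM in siBARD1 and at 80.9, 84.1, 86.4 and 80.1 CPM in siSCR. The helicase assembly factor DONSON was at 32.1, 31.7, 32.4 and 36.5 CPM in siBARD1 and at 46.0, 40.2, 48.6 and 45.5 CPM in siSCR. In both genes, as in the next, no siBARD1 value reached the lowest siSCR value. The ribonuclease subunit RNASEH2A was at 45.9, 52.5, 40.8 and 46.9 CPM in siBARD1 and at 60.1, 63.2, 60.0 and 60.8 CPM in siSCR. The log2 fold changes of DTYMK, DONSON and RNASEH2A were -0.37, -0.44 and -0.39, and ASF1B and TK1, named after their values were seen to complete the 8, had -0.33 and -0.48. TIMELESS, DTYMK, DONSON, RNASEH2A, TK1 and ASF1B each lost the call in at least 5 of the 8 fits without 1 library, with adjusted p of up to 0.159.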

How the data were processed

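Polyadenylated RNA of 8 libraries was sequenced. Per the submitters' processing notes, fastp, HISAT2 2.0.5 and featureCounts were used on GRCh37 (hg19). The labels leave the library strand open, and whether counting used it is not stated. The deposited counts are whole reads per gene, and the deposited FPKM by the authors equal count over length and column total. The log2 fold changes and adjusted p-values of the authors' deposited table come from an unnamed tool. A further 22217 rows naming no gene held 0 reads, and 8 per-sample columns were not used.

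Counts were tested with edgeR 4.0.16 (R 4.3.3): filterByExpr, TMM, quasi-likelihood F-test, two-sided, no block, Benjamini-Hochberg over 14528 genes, threshold 0.05. SE is implied by the F statistic. DESeq2 1.42.0 was an alternative. The method was tested on simulated data. A floor of 3 counts is worth 0.0828 to 0.123 CPM, covering counting error only. No 2 libraries of a group agreed within sampling noise (chi-square per degree of freedom at least 6.06).

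Members and lists were chosen with earlier results of these data known. Values by library are given for members past the threshold, for the smallest p in each other role, for the 3 largest positive changes, and for the 6 smallest p among the further genes. Deviations of same-numbered libraries from their group means correlated at 0.506, 0.502, 0.605 and 0.859 over 10146 genes. Unlike numbers among 1 to 3 gave 0.378 to 0.522, the highest for siBARD1 2 with siSCR 1. Pairing of numbers 1 and 2 is thus not shown by these values. The numbers, taken from the labels, serve as pairs in the block and the ratios by pair, not in the main fit. Of the members, 22 overlap another gene's span, 12 of them one with at least 10% of their reads. The octamer site of 1 further member is not reported here.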

Additional observations from a re-analysis of the deposited data

Results flagged for a closer look

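Of 44 groups of 4 libraries checked among the genes given by library, 8 held a library far from the other 3, where chance gives 2.2, and 7 of the 8 were libraries numbered 4. In siBARD1, library 4 was far below the others for CDT1 (57.5 CPM, the others 71.2 to 73.0), GINS1 (50.1 CPM, the others 69.3 to 72.7) and DBF4 (31.6 CPM, the others 38.6 to 39.4), and far above them for DONSON (36.5 CPM, the others 31.7 to 32.4). In siSCR, library 4 was far below the others for CDC45 (59.8 CPM, the others 70.4 to 70.8), MCM2 (291 CPM, the others 337 to 344) and BARD1 (20.8 CPM, the others 26.9 to 28.0). POLD2 in siSCR library 1 stood at 253 CPM, above the others at 248.2 to 248.5.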

How the results depend on the processing

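The count of members lower, 6, was 31 with the replicate block, 15 with DESeq2, 31 without both libraries numbered 4 and 32 with the replicate block and without those. Leaving out 1 library gave 4 to 15, with 15 without siBARD1 4. It was 6 with DESeq2 size factors, 8 with upper-quartile scaling and 4 without a filter. RPA3 lost the call with upper-quartile scaling (edgeR adjusted p = 0.0928). Without a filter RPA3 and GINS3 lost it (edgeR adjusted p = 0.0868 and 0.0577). Members higher, 0, were 0 to 2 without 1 library, 2 (POLE3 and GINS1) without siBARD1 4. They were 3 without both libraries numbered 4, also with the replicate block. Other replication genes lower, 8, were 20 with the replicate block, 20 without both libraries numbered 4, 21 with both changes, and 1 to 10 without 1 library. The lowest, 1, came without siSCR 1 and without siSCR 3. The share of all genes called was taken only for the main fit, the block, DESeq2 and the fit without both libraries numbered 4. For the other fits, a changed count cannot be told apart from a change in calls over all genes. The members' median log2 fold change ran from -0.33 to -0.21 without 1 library, and BARD1 stayed past the threshold under each alternative. In 1 alternative, chosen after seeing the data, members with the octamer or its heptamers were left out: 4 were lower, with a median of -0.25. Neither BARD1 nor a member given by library changed sign under these alternatives. Of the other members, CDC6 (up to 0.00), MCM4 (up to 0.02), RPA2 (up to 0.03), ORC4 (down to -0.02) and GINS4 (down to -0.03) crossed 0 on the log2 scale without 1 library, and RPA2 also without both numbered 4. The block lowered the biological coefficient of variation to 10.6%, against 23.7% without it. The cause of the changes with library 4 was not tested.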
